A study of Arabidopsis thaliana with 6 samples.

Results

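The RNA that came down with ECT2 was set against the RNA that came down on the same beads without the tag, locus by locus, in Arabidopsis thaliana seedlings. Both FA-CLIP libraries were made from transgenic plants of 14 days labelled ECT2:ETC2-Flag/ect2, in the Col-0 background, in which a FLAG-tagged ECT2 replaces the protein lost in the ect2 mutant. Both mock libraries were made from wild-type Col-0 seedlings of the same age, which carry untagged ECT2, with the same anti-FLAG M2 magnetic beads. Each group had 2 libraries, and nothing in the labels says whether these came from separate plant cultures, so the tests measure the spread between libraries, which may be technical. A site was counted once, its conversion events were summed per locus, and the nuclear chromosomes 1 to 5 were kept. This gave 13055 nuclear loci with an event in any of the 4 libraries, of 13239 loci in all. The other 184 lay in the organelle genomes.

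N6-methyladenosine (m6A) is a mark that a methyltransferase complex adds to adenosines in mRNA, and proteins with a YTH domain bind it. ECT2 is a YTH protein of the cytoplasm that acts with its relatives in leaf formation and in the branching of trichomes, the hairs of the leaf surface. In FA-CLIP, formaldehyde fixes proteins to RNA before the precipitation, and the mock shows what the beads hold when no tagged protein is present. The values are the authors' counts of conversion events at each called site; the sources used here do not say which base changes were counted.

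The libraries held 489805 and 653262 events in mock 1 and mock 2, and 901178 and 830355 in FA-CLIP 1 and FA-CLIP 2. Nuclear loci with an event numbered 1243 and 1346 in the mock libraries and 11138 and 11577 in the FA-CLIP libraries. Every listed site has at least 2 events, so a locus missing from a list is listed at 0 and is not shown to be unbound. In the input libraries, made from the same kind of tagged plants without precipitation, the 4 shoot markers were at 1687 to 7993 FPKM. Of the 7 root markers 5 were above 1 FPKM in both input libraries, and the highest, AT5G17820, was at 15.1 and 14.9 FPKM.

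Small noncoding RNA took a larger share of the mock than of FA-CLIP, and the FA-CLIP replicates differed in how much of it they held. Ribosomal RNA (rRNA) was the largest class of the mock, at 35.1% and 39.9% of the events. It took 15.4% in FA-CLIP 1 and 19.2% in FA-CLIP 2. Small nucleolar RNAs (snoRNAs), which guide chemical changes of ribosomal RNA, took 4.15% and 3.33% of the events in the mock libraries, 1.20% in FA-CLIP 1 and 0.286% in FA-CLIP 2. The small nuclear RNAs (snRNAs) of the spliceosome took 1.91% and 1.69% in the mock, 0.728% in FA-CLIP 1 and 0.313% in FA-CLIP 2. Both FA-CLIP values lay below both mock values in each class. Over loci with events in both mock libraries, the median log2 ratio of FA-CLIP 1 over FA-CLIP 2, each scaled to its library total, was 2.07 for microRNA loci, 1.92 for snoRNA loci and 1.16 for snRNA loci. Over the protein-coding loci called higher in FA-CLIP it was -0.32. The corresponding ratio of mock 1 over mock 2 was between -0.33 and 0.35 for rRNA, tRNA, microRNA, snoRNA, snRNA and protein-coding loci. The FA-CLIP replicates thus stood further apart than the mock replicates for microRNA, snoRNA and snRNA loci, and the part this plays in the calls below was not tested.

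**Figure D1:**
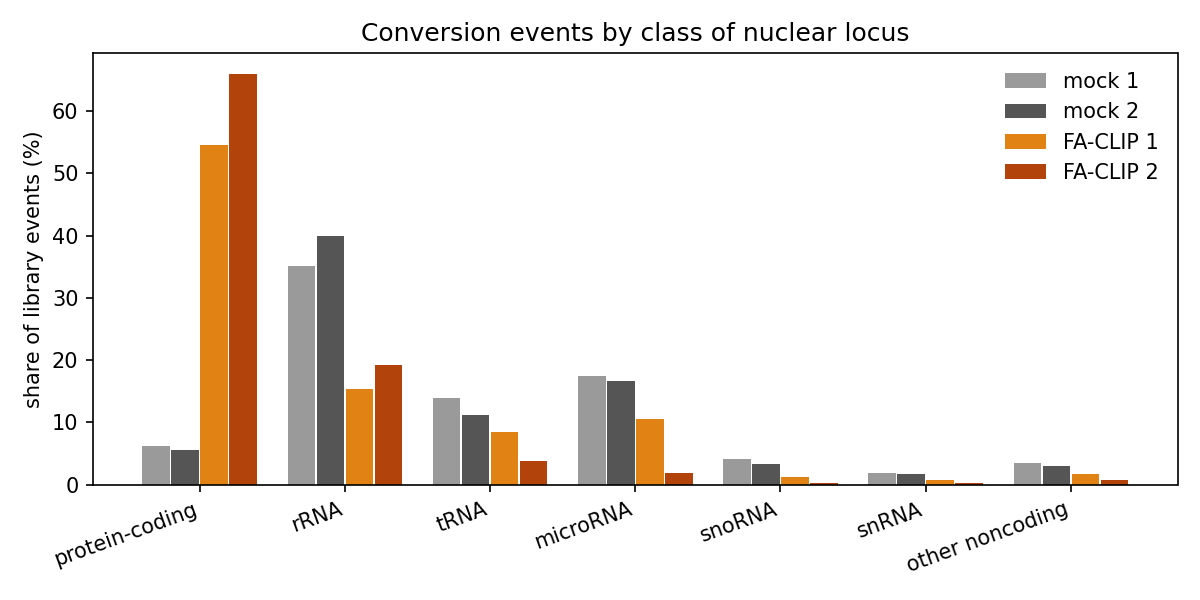
Share of all conversion events of a library (%, vertical axis) that fell on nuclear loci of each class, 1 bar per library. Protein-coding loci took 54.6% and 66.02% in FA-CLIP against 6.23% and 5.56% in the mock, and microRNA loci fell between 16.7% and 17.5% in the mock but at 10.5% and 1.95% in FA-CLIP.

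Almost all loci deep enough to be tested had more events in FA-CLIP. The comparison used edgeR's quasi-likelihood test on event counts with the library totals as the scale, and Benjamini-Hochberg adjusted p under 0.05 as the call. Of 5004 loci tested, 4536 (90.6%) were higher in FA-CLIP and 128 (2.56%) were lower. Both FA-CLIP libraries lay above both mock libraries, after scaling, for 4566 loci (91.2%) and below them for 239 (4.78%). Most of the higher calls were largely set by the filter. Its level was 13.5 EPM (events for every 1000000 events of the library), and 4464 loci were above it in both FA-CLIP libraries but not in both mock libraries. These 4464 loci could pass through the group where they are high, and 4441 were called higher and 23 were not called. For 3833 of them no event was listed in either mock library, and all 3833 were called higher. For these loci the events are given below without a fold change, because the fitted value depends on the prior count that the model adds. Among the 726 loci with events in both mock libraries 289 (39.8%) were higher and 128 (17.6%) lower. The count of higher loci fell when either FA-CLIP library was left out. Without FA-CLIP 1 the counts were 2722 higher and 144 lower, and without FA-CLIP 2 they were 2405 and 56. In whole seedlings, fewer cells that hold an RNA and less of that RNA per cell cannot be told apart.

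The 405 loci above the filter in all 4 libraries, a subset set apart after the values were seen, could be called in either direction, and there the classes differed. Of these, 94 (23.2%) were higher in FA-CLIP and 75 (18.5%) were lower. All 94 were protein-coding. Among the 156 protein-coding loci of this kind, 94 were higher, 12 lower and 50 not called, with a median log2 fold change of 2.20 against -0.49 over all 405. No snoRNA, snRNA, rRNA, tRNA or microRNA locus of this kind was higher by edgeR: 33 of 43 snoRNA loci, 6 of 11 snRNA loci, 1 of 4 rRNA loci, 5 of 121 tRNA loci and 8 of 47 microRNA loci were lower, and the rest were not called. Scaling to rRNA and tRNA events turned this for tRNA, with 27 loci higher and 0 lower, and for microRNA, with 1 higher and 0 lower, and left 14 snoRNA loci lower; without mock 1, 2 tRNA loci were higher and 17 lower. With TMM factors, which assume that most loci do not differ, 70 coding loci were higher and 39 lower, and 43 snoRNA loci were lower. Scaling to rRNA and tRNA gave 110 coding loci higher and 4 lower, and the tRNA loci are themselves part of that scale. The coding counts were 68 higher and 16 lower without FA-CLIP 1, and 73 and 8 without FA-CLIP 2. Those of lower snoRNA loci were 34 and 19. The count of lower microRNA loci was 24 without FA-CLIP 1 and 1 without FA-CLIP 2. That of the tRNA loci was 29 and 2.

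**Figure D2:**
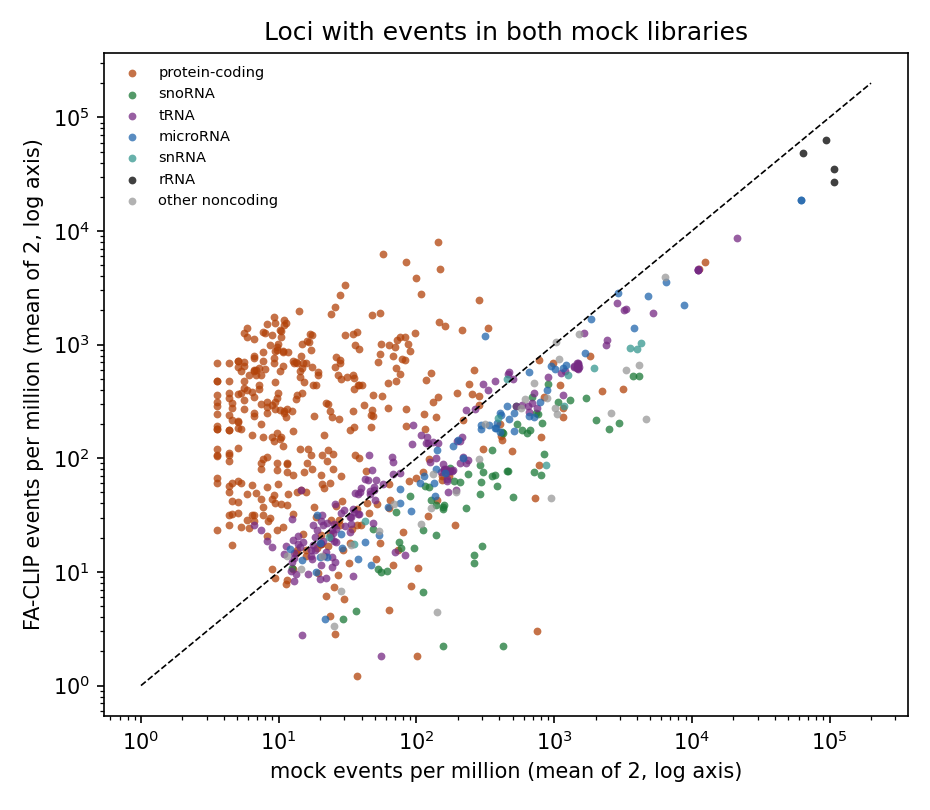
Mean EPM in FA-CLIP (vertical, log axis) against the mock (horizontal, log axis) for loci tested with events in both mock libraries, coloured by class, each point 1 locus and the dashed line equality; 5 loci with no FA-CLIP event and 2 loci outside the annotation are not drawn. Protein-coding loci spread above the line, most of them at few mock events, while snoRNA loci lie below it.

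Ribosomal protein mRNAs led the protein-coding loci that had events in both mock libraries, together with a plasma membrane proton pump and a subunit of the vacuolar one. HA1 (AT2G18960), which encodes a plasma membrane proton-pumping ATPase, was at 4 and 2 mock events beside 1223 and 976 FA-CLIP events. Scaled to library totals this was 1266 ± 128 EPM (SD, n = 2) in FA-CLIP and 5.61 ± 3.61 in the mock, a log2 fold change of 7.83 (SE 1.07; edgeR adjusted p = 4.576e-12). VMA10 (AT3G01390), a subunit of the vacuolar proton pump, had 2 and 5 mock events against 1208 and 1207, a log2 fold change of 7.82 (SE 1.06; edgeR adjusted p = 4.463e-12). Both FA-CLIP libraries stood far above both mock libraries for these loci. Like the other leaders below, they were above the filter in FA-CLIP alone, so nothing is read from the calls themselves.

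Among the ribosomal proteins, which build the translating ribosome, the locus AT1G15930 had 6 and 4 events in the mock and 1238 and 1736 in FA-CLIP. For AT4G31985, a protein of the L39 family, 5 and 4 events stood against 646 and 1920. Both FA-CLIP values lay above both mock values for every ribosomal protein locus named here. SAC52, which encodes ribosomal protein L10, had 5 and 2 mock events against 733 and 1170. RPS5A had 7 and 3 against 1028 and 1619. For BBC1 the values were 4 and 5 against 895 and 1264. The remaining leaders AT5G02960, AT2G01250, AT5G18380, RPS10B and the histone locus AT4G40040 had 2 to 9 mock events and 536 to 1483 FA-CLIP events. The log2 fold changes of these 10 loci lay between 7.18 and 7.56, with mock values so small that an event more or less changes them much.

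Of the 12 loci with most FA-CLIP events among those without a mock event, 8 encoded ribosomal proteins. Of all 11345 loci listed in FA-CLIP only, the product-name lists of 40S and 60S ribosomal proteins held 79 and 120. The ranking is by FA-CLIP events, and the part of mRNA abundance in it was not tested. AT1G18540, a ribosomal protein of the L6 family, had 751 and 1102 events in FA-CLIP and none in the mock, or 1080 ± 349 EPM (SD, n = 2). Like the other 11 loci, it passed the filter through FA-CLIP alone, so nothing is read from these calls. AT4G33865 of the S14p/S29e family had 447 and 999. The ribosomal protein loci AT1G52300, AT1G56045, AT1G29070, AT4G39200, AT3G59540 and P40 had 371 to 802 events in a library. BCA4, a carbonic anhydrase that interconverts carbon dioxide and bicarbonate, had 519 and 607 events. ARFA1D, a small GTPase of vesicle traffic, had 670 and 423, of which 42.8% lay in 3' UTR sites, whereas 3' UTR sites held 81.5% to 98.5% in the other 11 loci. A subunit of the mitochondrial F1 ATP synthase, AT5G47030, had 480 and 591, and AT5G43460 had 497 and 550.

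**Figure D3:**
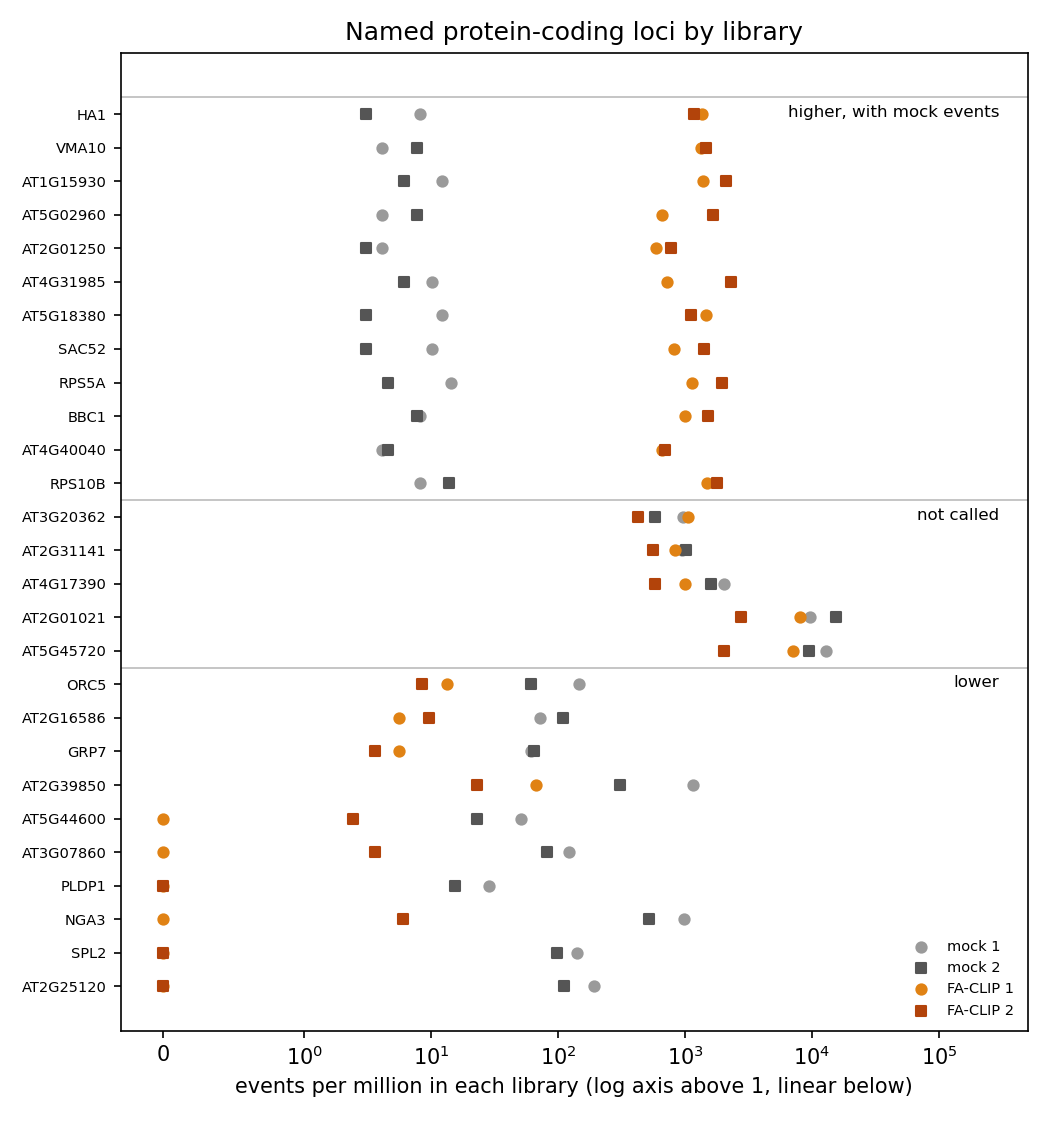
EPM in each library (horizontal axis, logarithmic above 1 and linear below) for the protein-coding loci named as highest, as not called with the most FA-CLIP events, and as lowest, 1 row per locus and 1 symbol per library. In the upper group the mock and FA-CLIP symbols lie far apart, in the middle group FA-CLIP 2 lies lowest and the symbols overlap for AT3G20362, and in the lower group FA-CLIP 1 and FA-CLIP 2 lie to the left, at 0 for AT2G25120, SPL2 and PLDP1.

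Sequence at the peak is shown for 4 of the leading loci named above, as examples, because these loci lead the comparison. Each window is the central 30 bases of the largest FA-CLIP site of its locus in the sense direction (TAIR10.1, RefSeq). The 4 sites are not the largest of the leading loci. The RPS5A site, which is not shown, held 1035 events beside 686 for that of VMA10. Capitals mark TGTA, the DNA form of UGUA, a core that is known from m6A sites in plants; only the transcript strand was searched. The windows are chr2:8227412-8227441 on the plus strand for HA1, chr3:150034-150063 on the minus strand for VMA10, chr4:15470474-15470503 on the plus strand for AT4G31985 and chr1:6377332-6377361 on the minus strand for AT1G18540, all labelled 3' UTR by the authors.
HA1: actcttttttctttttgttattgttagtca
VMA10: actcttcttTGTAttcatatatttggaacg
AT4G31985: ctctattatgattcatgttaccaaattttc
AT1G18540: tctctgattttatatatcaaattttcgagc
Among all the leading loci named above, shown or not, only VMA10 had TGTA in its window. Of the 4504 protein-coding loci called higher, 25.6% had TGTA in such a window. Over all protein-coding sites labelled 3' UTR the share was 24.5% in FA-CLIP 1, 25.5% in FA-CLIP 2 and 27.4% in each mock library. Within 3' UTR sites both FA-CLIP shares lay below both mock shares, by at most a few percentage points.

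Position along the mRNA differed between the groups in the protein-coding loci called higher. The calls used the same FA-CLIP events, and 4409 of these loci passed the filter through FA-CLIP alone, so the shares describe the loci. In the 4504 protein-coding loci called higher, sites labelled 3' UTR held 85.2% of the events in FA-CLIP 1 and 92.06% in FA-CLIP 2. No mock event was listed for 3810 of them. The few mock events of the other 694 lay in 3' UTR sites for 40.5% and 38.9%, and in coding sites for 46.5% and 48.7%. In the 285 of these loci with events in both mock libraries the shares were 83.7% and 90.5% in FA-CLIP against 40.2% and 38.5% in the mock. The groups did not overlap; no exact permutation test of 2 libraries against 2 can pass the threshold of 0.05, so none is given. In the 32 protein-coding loci called lower, the 3' UTR share was 16.0% in FA-CLIP 1, 41.1% in FA-CLIP 2, 7.21% in mock 1 and 11.1% in mock 2. In the 85 not called it was 41.0%, 49.2%, 41.1% and 32.4% in the same order.

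**Figure D4:**
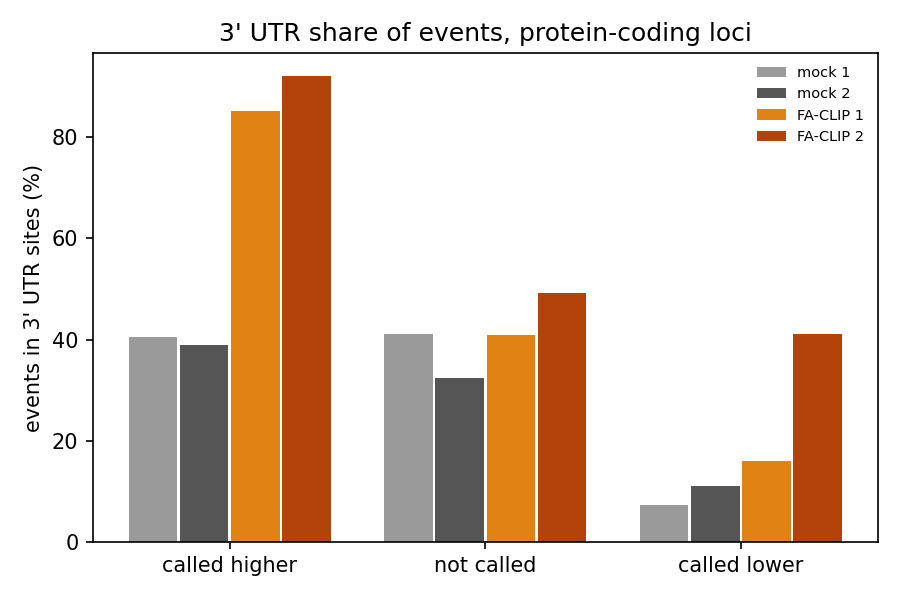
Share of events in sites labelled 3' UTR (%, vertical axis) for protein-coding loci called higher, not called and called lower, 1 bar per library. Only in the loci called higher do both FA-CLIP bars exceed 80% while the mock bars lie near 40%.

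Photosynthesis mRNAs were often listed in the mock too, so that many were above the filter in all 4 libraries. The photosystem list was taken by product name. Beside subunits it holds antenna loci, such as LHCB5 and LHCA2, and an assembly factor, HCF136. Of its 52 annotated loci 33 had events in both mock libraries and 43 were tested. Of these 43, 42 were higher and 1, the antenna locus LHB1B2, was not called (35 higher with TMM factors). Over all protein-coding loci tested 4504 of 4621 were higher, so the count of 42 is near the background. Of the 24 loci of this list above the filter in all libraries 23 were higher, with a median log2 fold change of 3.57. Over the 156 protein-coding loci of that kind 60.3% were higher. PSBR, a subunit of photosystem II, had 76 and 93 events in the mock and 3912 and 4083 in FA-CLIP, or 149 ± 9.05 against 4629 ± 407 EPM (SD, n = 2), a 31.1-fold difference of means (log2 fold change 4.96, SE 0.952; edgeR adjusted p = 2.729e-07). PSAL of photosystem I had 63 and 46 against 3093 and 3497, and PSAH-1, of the same complex, 7 and 9 against 1765 and 1647. The folds within the group thus ran from 31.1 for PSBR to 140 for PSAH-1 among these 3.

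The chlorophyll-binding antenna, some of whose members the photosystem list also holds, separated less. Of 24 antenna loci tested 18 were higher and 6 were not called, and 10 of the 16 above the filter in all libraries were higher, with a median log2 fold change of 2.02. These shares are below the 90.6% over all loci tested and near the 60.3% over protein-coding loci above the filter in all libraries. LHCA4 of the photosystem I antenna had 167 and 207 mock events against 1660 and 778, a 4.22-fold difference of means whose FA-CLIP libraries differed from each other (1389 ± 640 EPM; edgeR adjusted p = 0.009434). Its call was lost with TMM factors (adjusted p = 0.3031) and without either mock library (0.06397 without mock 1 and 0.08577 without mock 2). LHCA1 had 49 and 49 against 843 and 895, an 11.5-fold difference. All 5 loci of the small subunit of Rubisco, the enzyme that fixes carbon dioxide, and of its activase were higher. RBCS1A had 144 and 183 mock events against 2067 and 2180, an 8.57-fold difference (edgeR adjusted p = 2.891e-04), and 0.05167 with TMM factors. RCA, the activase, had 109 and 133 against 1247 and 1089, a 6.33-fold difference that reached an adjusted p of 0.1017 with TMM factors. With those factors 12 antenna loci and 2 of the 5 Rubisco loci were called higher.

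Translation and protein turnover loci were mostly above the filter in FA-CLIP alone. The lists of ribosomal proteins, of the photosystems and of the antenna were taken by product name, which is broad. Those of ribosomal proteins and of the antenna may hold proteins of the organelles. The list of 40S ribosomal proteins had 120 annotated members, of which 105 were listed in any library, 26 in a mock library, and 85 tested and higher. That of 60S proteins had 189, 170, 50, and 129 tested with 125 higher and 4 not called. Beside the 90.6% over all loci tested these counts are near the background. Summed over the 60S list, 2973 and 2549 EPM in the mock stood against 31930 and 51970 in FA-CLIP, and AT4G17390, described below, supplied 1818 ± 319 of the mock signal. AT5G60390, an elongation factor of the Tu family, which delivers aminoacyl-tRNA to the ribosome, had 17 events in each mock library and 2686 and 3107 in FA-CLIP, an 111-fold difference. UBC10, a ubiquitin-conjugating enzyme, had 16 and 15 against 1926 and 2775, a 98.5-fold difference, and UBC8 had 9 and 9 against 959 and 888. All 30 proteasome loci tested, all 13 of the vacuolar ATPase and all 22 of the ubiquitin list were higher.

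**Figure D5:**
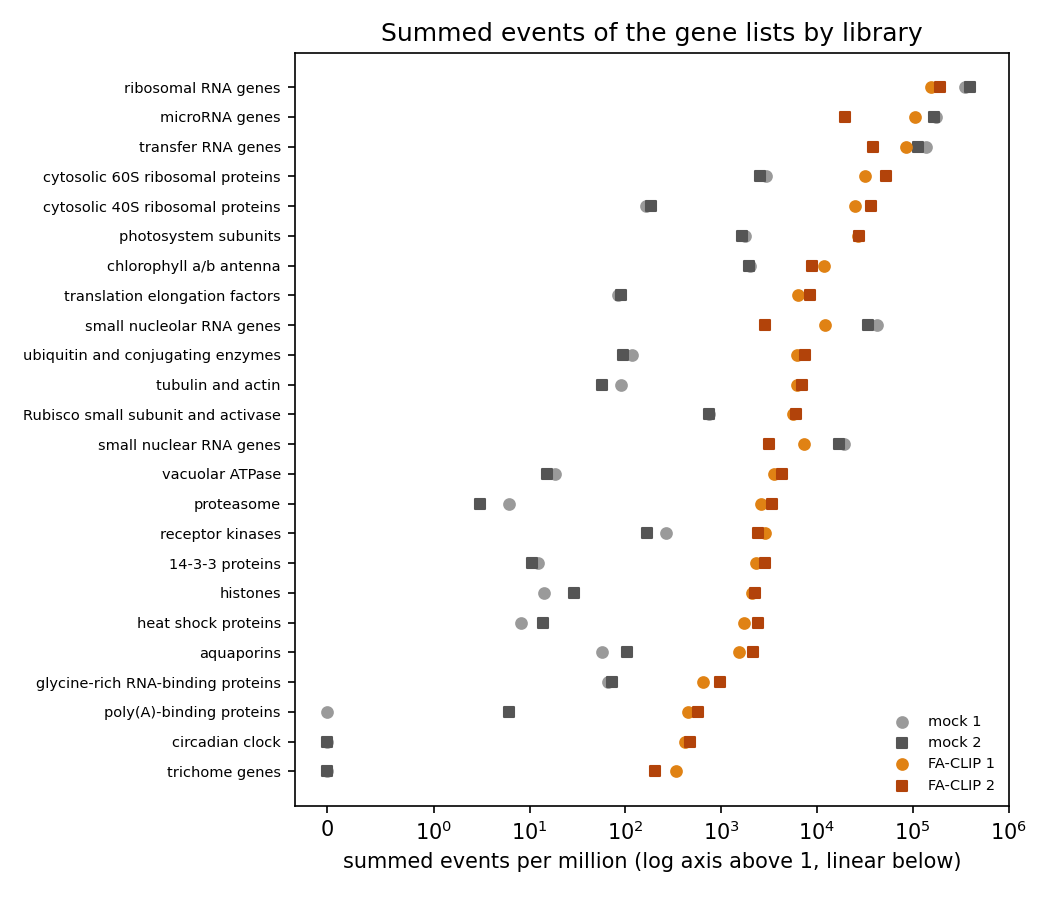
EPM summed over the members of each list (horizontal axis, logarithmic above 1 and linear below), 1 symbol per library, ordered by the FA-CLIP sum; the YTH readers and the writers and erasers, with no mock event, are not drawn. The coding lists lie to the right in FA-CLIP, and the microRNA, tRNA, rRNA, snoRNA and snRNA lists lie to the right in the mock; FA-CLIP 1 and FA-CLIP 2 stand apart for microRNA and snoRNA.

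Where they were listed at all, members of the reader, writer and eraser, and trichome lists were listed in FA-CLIP alone, mostly too thinly to test. The same held for 11345 of all 13055 loci listed, and 90.6% of all loci tested were higher, so neither is particular to these lists; the members tested passed the filter through FA-CLIP alone. Of 13 YTH genes 10 were listed in both FA-CLIP libraries and none in a mock library, and 2 were tested and higher. ECT2 itself had 86 and 78 events and no mock event (edgeR adjusted p = 2.178e-11), and 24.4% of its events lay in 3' UTR sites. The FA-CLIP plants carry an ECT2 transgene and the mock plants do not, and the part of this in the ECT2 value was not tested. ECT1, a relative of ECT2, had 40 and 51 events, 97.8% of them in 3' UTR sites. Among the 8 loci of the list of writers and erasers, which add or remove the mark, 3 were listed and none was deep enough for the test. These were EMB2016, AT5G01160 and TRM9, which is annotated as an RNA-binding family protein. The methyltransferase loci MTA and EMB1691 were not listed in any library, nor were FIP37, AT2G17970 and AT4G02940. Of 17 trichome genes 11 were listed, none in a mock library, and the 4 tested were higher. TTG1, a regulator of trichome fate, had 85 and 53 events. TRY, which restrains trichome fate in neighbouring cells, had 117 in FA-CLIP 1 and 5 in FA-CLIP 2, with 4.10% of them in 3' UTR sites, and was not tested. AN had 30 and 22 events, but its call was lost without either FA-CLIP library (edgeR adjusted p = 0.1472 and 0.08646), as was that of DIS2, a subunit of the actin-nucleating Arp2/3 complex, with 17 and 31 events (0.06384 and 0.2456). The call of PIR121, with 17 and 13 events, was lost without FA-CLIP 2 (0.2456).

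Further RNA-binding and regulatory genes were higher in FA-CLIP where tested, except GRP7 and 4 of the receptor kinases. Beside the 90.6% over all loci tested their counts are near the background. All 5 clock genes tested of 14 were higher, and CCA1, a morning-phased clock regulator, had 135 and 159 events and no mock event. The call of TOC1 was lost without FA-CLIP 1 (edgeR adjusted p = 0.08221) and that of RVE8 without FA-CLIP 2 (0.06526). Of 3 poly(A)-binding proteins tested all were higher; PAB2, which coats the poly(A) tail, had 0 and 2 mock events against 171 and 207. Of 7 glycine-rich RNA-binding proteins tested 6 were higher, among them GR-RBP5 with 199 and 246 events and no mock event. GRP7, a clock-regulated member of that family, passed the filter through the mock alone, so that its call was largely set by the filter, and was lower: 30 and 42 events in the mock against 5 and 3 in FA-CLIP, or 62.8 ± 2.15 against 4.58 ± 1.37 EPM (SD, n = 2; log2 fold change -3.72, SE 0.730; edgeR adjusted p = 4.951e-07). None of its FA-CLIP events lay in 3' UTR sites, and its mean input level was 274 FPKM. The call was lost without FA-CLIP 1 (adjusted p = 0.09374) and without FA-CLIP 2 (0.1658), with the same sign. Among receptor kinases and leucine-rich repeat proteins 34 of 542 were tested, and 30 were higher and 2 lower. RPK2, a receptor kinase, had 576 and 141 events and no mock event.

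Small nucleolar RNAs were the largest class among the lower loci. Of 66 snoRNA loci tested 51 were lower and none was higher, but 21 of the 66 passed the filter through the mock alone. Of the 43 above it in all libraries 33 were lower, beside 18.5% of the 405 loci of all classes. AT3G27865 had 1698 and 1604 events in the mock against 313 and 54 in FA-CLIP, or 2961 ± 715 against 206 ± 200 EPM (SD, n = 2; log2 fold change -3.84, SE 0.883; edgeR adjusted p = 1.693e-05). AT3G47347 had 1441 and 1370 against 281 and 42. For U3D, a guide of early rRNA processing, 1998 and 2708 stood against 829 and 109, and for the closely related U3B 1714 and 2573 against 837 and 101. FA-CLIP 1 was the nearer to the mock in each of them, and no FA-CLIP value reached a mock value after scaling. Of 12 snRNA loci 6 were lower, among them U2.4, with 2331 and 2454 against 1312 and 511, and U2.7, with 2129 and 2371 against 1160 and 448. Both calls were lost without mock 1 (edgeR adjusted p = 0.09738 and 0.07267), without mock 2 (0.06862 and 0.05727) and with scaling to rRNA and tRNA events (0.204 and 0.1659). Of the 11 snRNA loci above the filter in all libraries 6 were lower, 2 without either mock library, 1 with that scaling and 10 with TMM factors. Copies of U2 and of U3 are near-identical, so events of a single copy are uncertain.

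Calls of transfer RNA and microRNA loci depended on the scaling. With library totals, of 180 tRNA loci 12 were lower, 5 higher and 163 not called. All 5 higher loci had passed the filter through FA-CLIP alone, and 7 of the 12 lower ones through the mock alone. Those calls were largely set by the filter. The median log2 fold change was -0.33 over the 162 tRNA loci with events in both mock libraries. Scaling to rRNA and tRNA events turned that median to 0.74 and the calls of the tRNA list to 52 higher and 4 lower. The tRNA events are part of that scale, so the tRNA result under it is not independent of it. TMM factors gave 1 higher and 93 lower, and DESeq2's median-ratio factors 1 higher and 51 lower. For microRNA loci 12 of 60 were lower and none higher, and 4 of the 12 had passed the filter through the mock alone. The median of the microRNA loci was -0.86, and scaling to rRNA and tRNA turned it to 0.21. That scaling called 2 higher and 1 lower, TMM factors 45 lower and DESeq2's median-ratio factors 20 lower. MIR398b had 30356 and 40571 events in the mock against 29613 in FA-CLIP 1 and 3769 in FA-CLIP 2. MIR398c had 30967 and 40347 against 29548 and 3733. Their mean difference was 3.32-fold and 3.35-fold lower in FA-CLIP (edgeR adjusted p = 0.04386 and 0.04217), but it was lost without FA-CLIP 2 (0.05645 and 0.0535) and in most of the other settings. The miR398 family is known to cut mRNAs of copper superoxide dismutases. Of the events of MIR398b, 30348 in mock 1 and 29604 in FA-CLIP 1 overlapped the mature 3' arm. The mature sequences of MIR398a, MIR398b and MIR398c are printed because they show why MIR398b and MIR398c cannot be told apart. Capitals mark the seed, bases 2 to 8 (TAIR10.1, RefSeq). The mature sequences lie at chr2:1041012-1041032, chr5:4691107-4691127 and chr5:4694778-4694798, all on the plus strand.
miR398a-3p: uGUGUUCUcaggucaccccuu
miR398b-3p: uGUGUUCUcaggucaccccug
miR398c-3p: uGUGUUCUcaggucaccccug
All 3 share the seed, and miR398b-3p and miR398c-3p are identical, so the split of events between MIR398b and MIR398c is uncertain.

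Of the 4 rRNA loci 1 was lower. AT3G41979, a 5.8S rRNA locus, had 45164 and 81252 events against 16252 and 29492 (edgeR adjusted p = 0.01991); the call was lost with scaling to rRNA and tRNA events (0.1955), with sites of 5 or more events (0.05971), without mock 1 (0.2619) and without mock 2 (0.3901). The 18S rRNA locus AT3G41768 had 53380 and 52306 against 54032 and 54429, or 94530 ± 20440 against 62750 ± 3954 EPM (SD, n = 2), and was not called (adjusted p = 0.4869). These loci have near-identical copies as well.

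Short sites, or sites inside small noncoding RNA genes, were frequent among the 32 protein-coding loci called lower. Their largest mock site was at most 13 nt wide in 11 of 32 loci (34.4%), against 75 of 694 (10.8%) among coding loci called higher that had a mock event. It overlapped an annotated small noncoding RNA gene on the same strand in 12 of 32 (37.5%) against 15 of 694 (2.16%), and 21 of 32 had either property. By the authors' label 14 of the 32 sites were intronic, 9 lay in a 5' UTR, 7 in coding sequence and 2 in a 3' UTR. The coding loci not called had these traits as well, with short largest sites in 29 of 85 (34.1%) and overlap with a small noncoding RNA gene in 20 of 85 (23.5%). The calls used the mock events, so these shares describe the loci and were not tested.

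AT2G25120, a protein with a BAH domain, had 94 and 73 mock events and none in FA-CLIP, all in 1 site of 10 nt, while its mean input level was 0.0203 FPKM. NGA3, a B3-type transcription factor, had 481 and 340 against 0 and 5, with all mock 1 events in a site of 11 nt. SPL2, a transcription factor of the squamosa promoter-binding family, had 69 and 64 against 0 and 0 in an intronic site. AT2G39850, a subtilisin-like protease, had 564 and 201 against 60 and 19, and was the 1 named coding locus above the filter in all libraries. Further lower loci were ORC5 of the origin recognition complex (71 and 40 against 12 and 7), AT5G44600 (25 and 15 against 0 and 2), PLDP1 (14 and 10 against 0 and 0), AT2G16586 (35 and 72 against 5 and 8) and AT3G07860 (60 and 53 against 0 and 3), whose largest mock site overlaps the snoRNA gene AT3G02045. The other named loci passed the filter through the mock alone. Without FA-CLIP 1 the calls of ORC5, AT5G44600, PLDP1, AT2G16586 and AT3G07860 were lost (adjusted p = 0.113, 0.1295, 0.09906, 0.1322 and 0.06188), with the same sign. Without FA-CLIP 2 those of ORC5, PLDP1 and AT2G16586 were lost (0.1812, 0.1074 and 0.1108). Sites of 5 lower loci, among them the snoRNA AT2G43141 with 239 and 238 mock events against 4 and 0, are printed because of how little sequence the calls rest on. They lie at chr2:10691466-10691475 on the plus strand (AT2G25120), chr1:11910-11920 on the minus strand (NGA3), chr5:17362321-17362338 on the minus strand (SPL2), chr2:16631457-16631467 on the plus strand (AT2G39850) and chr2:17923629-17923642 on the plus strand (AT2G43141). Capitals mark CTGA, the letters of box D that closes C/D-type snoRNAs, searched on the transcript strand.
AT2G25120: ttctggttga
NGA3: gatgatcaatt
SPL2: agaCTGAaatatatatgc
AT2G39850: tCTGAgctctt
AT2G43141: cagtCTGAttccag
CTGA was present in the largest mock site of 9 of the 32 lower coding loci (28.1%), of 67 of 694 called higher (9.65%) and of 8 of 85 not called (9.41%). A match says only that the letters are there.

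Among the 5 uncalled protein-coding loci with the most FA-CLIP events, 2 had their largest mock site inside a noncoding RNA gene. AT5G45720, an AAA-type ATPase, had 6283 and 6237 mock events and 6435 and 1690 in FA-CLIP (edgeR adjusted p = 0.1265). Its site of 29 nt at chr5:18543000-18543028 on the minus strand held 99.9% of its mock 1 events and overlapped the tRNA gene AT5G45715. The sequence is printed because the same letters stand at tRNA-Glu genes elsewhere in the genome.
AT5G45720: atatctggctttcacccaggagacccggg
This sequence was listed at 7 places in mock 1, with 1853 to 11875 events each, and at 9 places in FA-CLIP 1, with 1877 to 12178. At AT1G20170 and AT5G66755 it had 6268 and 6205 events in mock 1. Events of these loci are uncertain, since the copies cannot be told apart. Of all tRNA events, 57.1% to 71.5% lay in sites whose sequence was listed more than 1 time in the same library. AT4G17390, a ribosomal protein of the L15e family, had 1001 and 1040 mock events and 906 and 483 in FA-CLIP (adjusted p = 0.1362), and its largest mock site of 12 nt, with 92.1% of its mock 2 events, lay in the intronic snoRNA gene AT4G06705. AT2G01021, next to the rRNA loci AT2G01010 and AT2G01020 on chromosome 2, had 4741 and 10039 against 7216 and 2292 (adjusted p = 0.1473). AT5G45720, AT4G17390 and AT2G01021 became lower calls without FA-CLIP 1 (adjusted p = 0.006826, 0.02098 and 0.01551), and also with TMM factors (0.04662, 0.02631 and 0.04431). AT3G20362, with 470 and 381 against 944 and 355, overlapped between the groups after scaling. AT2G31141, with 465 and 660 against 747 and 464, was lower in both FA-CLIP libraries after scaling and was not called.

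Input abundance differed along with the calls. The median of the mean input level was 19.3 FPKM (quartiles 10.8 and 42.2) over the 4500 protein-coding loci called higher that had an input value. It was 8.78 FPKM (quartiles 1.69 and 35.6) over the 85 not called, whose quartile range overlapped that of both other groups. Over the 32 called lower the median was 4.57 FPKM (quartiles 1.96 and 7.98). The median was 5.38 FPKM over 7528 loci listed in the site files but too thin to test. The input was made with another library kit, so it sets no scale for the events.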

How the data were processed

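Both FA-CLIP and both mock libraries were read from the authors' lists of sites by transcript. Each deposited value is a count of conversion events at a site, per the file headers. Tools named in the submitters' processing notes are cutadapt and Bowtie, with TAIR10 as the build. Their versions, and the site caller with its settings, were not given in the sources used here. Input was read as FPKM per gene as deposited, a unit inferred from the headers and values; its depth is unknown.

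Distinct sites were summed per locus and scaled to library totals. Annotation and sequences came from RefSeq on TAIR10.1; 12994 of 13055 loci matched and 99.8% of site listings lay inside the gene on the same strand. Loci were filtered with filterByExpr (minimum count 10) and tested with edgeR 4.0.16 in R 4.3.3 (quasi-likelihood, adjusted p threshold 0.05). DESeq2 1.42.0 was an alternative. The SE is the fold change over the root of the F statistic. Means carry the SD of 2 libraries. The fit was tested on simulated data. Figures used matplotlib 3.10.9 in Python 3.11.15. Scaling, filter, site minimum, shared sites, sites per locus, replicate block and each library left out were varied.

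Named loci are the 12 coding loci with the largest positive fold change among those with events in both mock libraries, the 12 without mock events with most FA-CLIP events, the 12 lowest and the 10 lowest coding loci, the 5 uncalled coding loci with most FA-CLIP events, listed readers, writers and trichome genes, and up to 4 per other list. The members and lists were chosen with earlier results of these data known.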

Additional observations from a re-analysis of the deposited data

How the results depend on the processing

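The count of loci higher in FA-CLIP was 4536. It was 7928 with no filter, where 13055 loci were tested, and ran from 2405 to 5946 with each library left out. The count of loci lower was 128. It was 304 with TMM factors, 195 with DESeq2's own size factors, 55 with scaling to rRNA and tRNA events, 77 with the replicate block, and ran from 56 to 144 with each library left out. The block lowered the higher calls to 3711; the samples share only a number (correlation of same-numbered deviations -0.056). Calls over all gene lists were 567 and ran from 402 to 655 with each library left out. The median log2 fold change of all loci moved from 7.55 by -0.39 with TMM factors and by 0.57 with rRNA and tRNA scaling. It moved by -1.34 with DESeq2's own size factors and by -0.83 with DESeq2 on library totals. Most of these loci had no mock event, so this median is not a measured fold change. Over the 726 loci with events in both mock libraries the median was 0.14. For those loci it was -0.985 with TMM factors, 1.22 with rRNA and tRNA scaling and -0.38 with DESeq2's own size factors. No locus called in one direction was called in the other under any alternative.

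Counting sites in place of events, scaled to the number of sites, gave 0 higher, 0 lower and 0 calls over the lists by edgeR, with 88 loci higher and 326 lower at unadjusted p under 0.05. FA-CLIP lists hold many times more sites, so a locus with equally many sites in each list comes out negative by construction. There 33 named loci turned negative, none of them called, with log2 fold changes of these sizes: AT1G01620 -1.29, AT1G04270 -0.80, AT1G07920 -0.45, AT1G14320 -0.69, AT1G30230 -2.27, AT1G64230 -0.87, AT1G67090 -3.23, AT1G79040 -3.13, AT2G30570 -2.12, AT2G39730 -2.89, AT2G45960 -0.70, AT3G01390 -0.69, AT3G09860 -0.99, AT3G16140 -1.10, AT3G47470 -3.18, AT3G49010 -1.17, AT3G54890 -2.54, AT4G10340 -2.76, AT4G12800 -2.49, AT4G13850 -0.88, AT4G31985 -0.59, AT5G01530 -2.46, AT5G02960 -0.45, AT5G09810 -0.87, AT5G15200 -0.78, AT5G18380 -0.45, AT5G21090 -0.26, AT5G38410 -3.08, AT5G38430 -2.25, AT5G41520 -1.12, AT5G41700 -1.09, AT5G53300 -1.40, AT5G60390 -0.92. Of 134 named loci tested, 10 kept their direction and side of the threshold in all of the 15 alternatives that gave a value. Without the counting of sites, 97 did so under the other 14.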
